A study of Mus musculus with 2 samples.

Results

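The genes encoding the cytokine Tnf, both lymphotoxins (Lta and Ltb) and their receptors Tnfrsf1a, Tnfrsf1b and Ltbr were examined in mouse MC38 tumors with and without MSA-2. The 6 members were chosen by gene symbol and not by a rule on measured values, and each symbol matched 1 of the 32285 genes counted. Their transcripts were measured by single-cell RNA sequencing of 2 libraries, so each gene could be followed across cell classes and between treatments.

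Tnf is an inflammatory cytokine that is made as a membrane protein and released by shedding. It signals through the broadly expressed receptor TNFR1, encoded by Tnfrsf1a, and through TNFR2, encoded by Tnfrsf1b and best known from leukocytes, toward NF-kB, cell survival or cell death. Lymphotoxin alpha, encoded by Lta, can act alone through the TNF receptors or pair with lymphotoxin beta, encoded by Ltb, at the membrane of lymphocytes, where the pair engages the receptor encoded by Ltbr on stromal and myeloid cells and helps to organize lymphoid tissue.

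MC38 is a mouse colon carcinoma cell line, and MSA-2 is a small-molecule agonist of the innate immune sensor STING. Tumors in C57BL/6 mice aged 6 to 8 weeks were injected 3 times, at intervals of 3 days, with the last injection on day 6 and collection on day 7. The control library is labelled as an untreated negative control, while the series design describes a saline vehicle with 10% DMSO for that arm, and the other library came from MSA-2-treated tumors. Tumors of 3 mice were pooled in each library and the cells were sorted before capture, by a marker that is not given in the sources used here. With 1 library per group, no difference had a replicate check and no test was made.

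The untreated library held 14386 barcodes with 198135335 UMIs (unique molecular identifiers, each counting 1 captured transcript), and the MSA-2 library held 14617 barcodes with 204387165 UMIs. The libraries shared 53 barcode sequences. After filtering and removal of predicted doublets, 13334 untreated and 13393 MSA-2 cells were retained, with medians of 8298.5 and 9271 UMIs per cell. The unit of expression is CPM, for each gene the count of its UMIs per 10⁶ UMIs of that class, a scale on which each transcript counts once whatever its length. The intervals in parentheses are at 95% and cover counting error only.

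Cells were assigned to 9 named classes from summed marker genes. Macrophages numbered 3645 in the untreated library and 1037 after MSA-2, equal to 27.3% and 7.74% of cells. Ly6c2 monocytes numbered 339 and 874, neutrophils 9 and 2322, dendritic cells 253 and 18, T cells 1235 and 151, and NK cells 180 and 86. The myeloid and lymphoid make-up of the libraries thus differed widely, and the sort may bear on these shares. Fibroblasts numbered 343 and 742 and endothelial cells 60 and 75, while 1593 and 2338 cells were assigned to no class.

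The largest class, with 5639 untreated and 5721 MSA-2 cells, was selected with a tumor and epithelial marker list, but only Gng11 and Ccn1 of its 8 genes were detected at substantial levels. Krt8, Krt18, Krt7, Krt19, Epcam and Cldn4 each had under 1 CPM there in the untreated library, with Krt19 at 0, so the class is called Gng11/Ccn1 after its detected genes. Its cells lay in partly different clusters in the libraries. Clusters 3, 7 and 8 held 17.8%, 15.7% and 12.4% of the untreated ones, and clusters 11, 13 and 18 held 13.2%, 12.7% and 10.3% of the MSA-2 ones. Other clusters held similar shares in both, among them cluster 4 at 11.3% and 12.3%, cluster 5 at 8.21% and 9.46% and cluster 6 at 9.06% and 6.97%. The median level of Ptprc, the pan-leukocyte gene, was 0 for this class in each library. The other classes were likewise selected by their markers, so the marker levels describe the classes and do not check their names. Summed macrophage markers had a median over cells of 37100 CPM in macrophages of the control library and 26858 CPM in those with MSA-2, against 3675 and 680 CPM in the monocytes. In the monocytes the summed monocyte markers had medians of 8343 and 7538 CPM. Near the limit of its class (within 1.2 times) lay 24 monocytes without MSA-2 and 102 with it, against 66 and 50 of the macrophages.

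Cells called Ly6c2 monocytes came from different clusters in the libraries. Of the untreated ones, 83.5% fell in cluster 10, led by Chil3 and Ly6c2. After MSA-2, 43.1% fell in that cluster, 25.4% in cluster 0, with Pf4 and Lyz2 among its leading genes, 105 of the 874 cells in the unnamed cluster 9, and 9.95% in the fibroblast cluster 14. Fibroblast markers in this class accordingly summed to 319 CPM without MSA-2 and 6252 CPM with it, with medians over cells of 281 and 568 CPM, and Col1a1, Col1a2, Col3a1, Dcn, Lum, Pdgfra and Postn make up that list. The 87 monocyte-class cells in cluster 14 held 95.1 CPM of Tnf, against 1432 CPM in the 377 in cluster 10. Markers of neutrophils, which were abundant only in the MSA-2 library, were also higher in other classes there. They summed to 84.1 and 1034 CPM in macrophages, 176 and 1884 CPM in monocytes, 11.4 and 619 CPM in T cells, and 8.40 and 1133 CPM in NK cells. In fibroblasts they summed to 37.7 and 678 CPM, in Gng11/Ccn1 cells to 28.9 and 475 CPM, and in endothelial cells to 16.1 and 875 CPM.

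The ligand genes lie together on mouse chromosome 17 (GRCm38.p6). Tnf (ENSMUSG00000024401) spans chr17:35199367-35202007 on the minus strand, Lta (ENSMUSG00000024402) chr17:35203165-35205578 on the minus strand, and Ltb (ENSMUSG00000024399) chr17:35194507-35196305 on the plus strand. Tnf is separated from Lta by 1157 bases and from Ltb by 3061 bases, with 0 annotated genes in either gap. Tnfrsf1a (ENSMUSG00000030341) at chr6:125349723-125362483 and Ltbr (ENSMUSG00000030339) at chr6:125306571-125313885 are also neighbors, 35837 bases apart with 1 gene between them, and Tnfrsf1b (ENSMUSG00000028599) lies at chr4:145212368-145246870. None of the 6 overlaps another member.

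Promoters of the adjacent genes Tnf and Ltb are shown because their levels moved in opposite directions between the libraries, as described next. Both are RefSeq sequences of 300 bases from GRCm38.p6, read 5′ to 3′ on the gene's own strand, and the capitals mark a motif match. The windows are chr17:35201958-35202257 on the minus strand for Tnf and chr17:35194257-35194556 on the plus strand for Ltb.
Tnf: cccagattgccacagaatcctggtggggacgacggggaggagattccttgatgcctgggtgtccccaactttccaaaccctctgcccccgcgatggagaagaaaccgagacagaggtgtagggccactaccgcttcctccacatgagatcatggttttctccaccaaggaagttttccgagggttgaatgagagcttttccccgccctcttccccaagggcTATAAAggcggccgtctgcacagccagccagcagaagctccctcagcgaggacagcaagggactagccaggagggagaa
Ltb: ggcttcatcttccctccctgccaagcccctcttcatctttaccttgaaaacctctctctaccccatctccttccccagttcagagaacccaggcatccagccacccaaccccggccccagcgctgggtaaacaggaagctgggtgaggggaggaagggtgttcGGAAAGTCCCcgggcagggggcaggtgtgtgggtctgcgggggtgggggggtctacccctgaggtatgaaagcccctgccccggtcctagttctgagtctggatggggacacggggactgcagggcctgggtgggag
The capitals in Tnf mark the TATA motif TATAAA, which was found on either strand in 13.6% of 32851 promoters of the same length. Those in Ltb mark a match to the NF-kB consensus on the opposite strand, a motif found in 4.51% of promoters. The Lta promoter also held TATAAA, at bases 84 to 89 of its window. The AP-1 motif TGANTCA, present in 7.81% of all promoters, was found in none of the 6, and none of the receptor promoters held any of the 3 motifs. These matches describe letters in a window and are not evidence of factor binding.

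Tnf was higher after MSA-2 in each class with at least 50 cells in both libraries. Macrophages held 325 CPM of Tnf (317 to 333) in the untreated library and 957 CPM (931 to 983) in the MSA-2 library, a 2.95-fold difference and a log2 ratio of 1.56 (1.51 to 1.61). Ly6c2 monocytes held 59.9 CPM (47.2 to 75.1) and 924 CPM (896 to 953), 15.4-fold higher with a log2 ratio of 3.95 (3.62 to 4.30), from 75 and 4030 UMIs. The untreated monocytes thus lay far below the untreated macrophages, whereas the intervals of both classes overlapped after MSA-2. That MSA-2 monocyte level includes the 87 cells in the fibroblast cluster 14, at 95.1 CPM. Monocytes in clusters 0, 9 and 10 held 1426, 1521 and 1432 CPM there, above the interval of all macrophages. T cells held 61.2 and 320 CPM, with a log2 ratio of 2.39 (2.13 to 2.64). NK cells held 47.6 and 222 CPM, with a log2 ratio of 2.22 (1.75 to 2.71). Neutrophils held 250 CPM (236 to 265) after MSA-2, and their 9 untreated cells allowed no comparison.

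In the untreated library the order of Tnf levels was macrophages, dendritic cells at 85.6 CPM (72.6 to 100), T cells, monocytes and NK cells, with the intervals of T cells, monocytes and NK cells overlapping and those of monocytes and dendritic cells overlapping narrowly. After MSA-2 it was macrophages and monocytes, with overlapping intervals, then T cells, neutrophils and NK cells, with neutrophils and NK cells overlapping. Monocytes outside the fibroblast cluster, in clusters 0, 9 and 10, lay above the macrophages, as given above. Cells without leukocyte markers had lower levels. Fibroblasts held 8.01 CPM without MSA-2 and 74.3 CPM with it, endothelial cells 10.8 and 52.1 CPM from 6 and 43 UMIs, and Gng11/Ccn1 cells 6.14 and 17.9 CPM. The fibroblast class also held more monocyte markers after MSA-2, summing to 1103 and 3661 CPM. The log2 ratios of these 3 classes were 3.21 (2.74 to 3.73), 2.27 (1.04 to 3.80) and 1.55 (1.43 to 1.66). Thinning gave 2.54 in fibroblasts and 2.29 in Gng11/Ccn1 cells, and the first version of the class rule gave 1.41 in endothelial cells. Over all cells Tnf stood at 46.6 and 88.1 CPM, a 1.89-fold difference, which is smaller than that within any of these classes. Of the fibroblast class, 57.4% of untreated and 75.1% of MSA-2 cells lay in the fibroblast cluster 14. Most of its other cells lay in clusters named Gng11/Ccn1. With classes from clusters, fibroblast Tnf had a log2 ratio of 3.04. The part of these other cells in the fibroblast values of the pathway genes below was not tested.

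**Figure D1:**
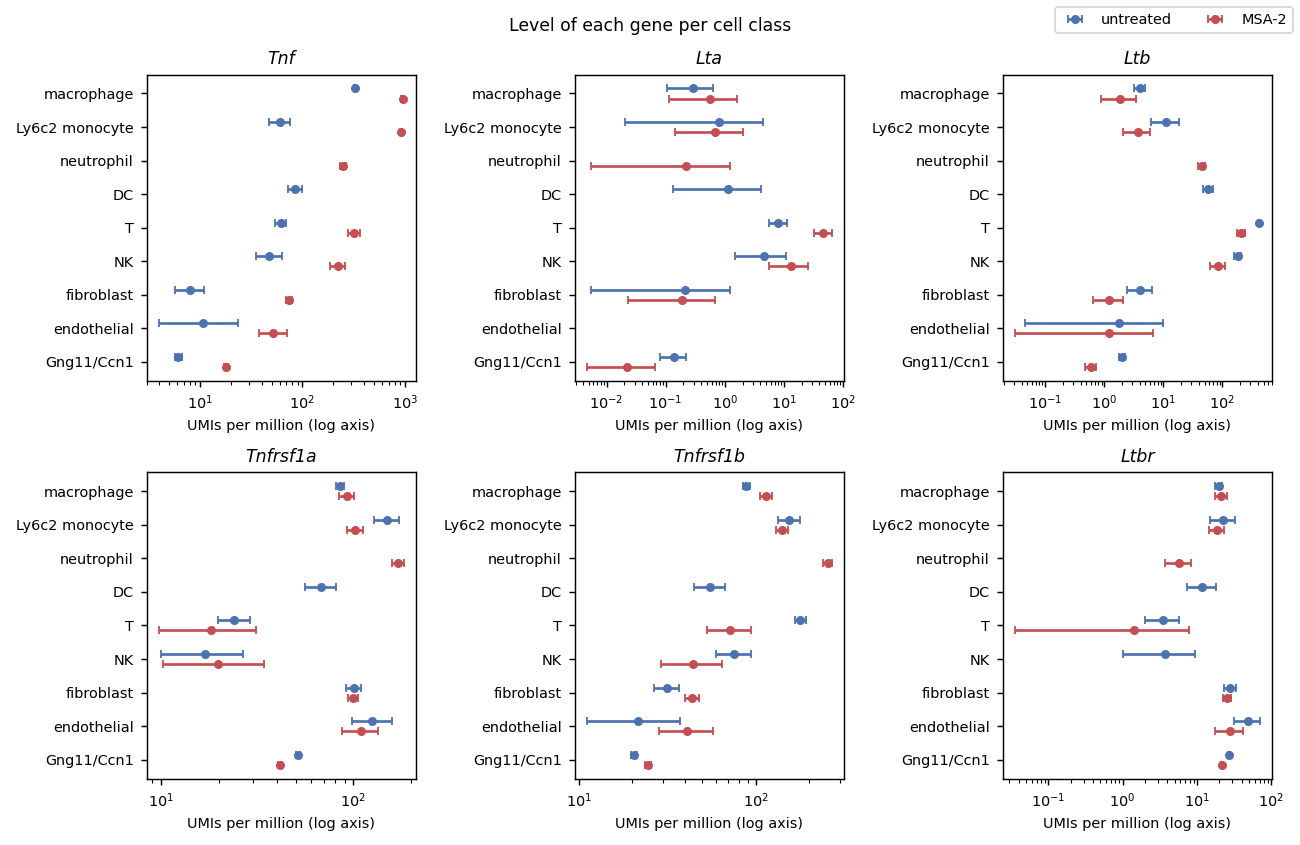
Level of each gene per cell class in CPM on a log axis, with a point for each library and bars for the 95% counting interval; classes under 50 cells or without a UMI are not drawn. The MSA-2 point for Tnf lies to the right of the untreated point in each class with both, whereas the Ltb points for T and NK cells lie to the left.

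The depth of a cell affects whether any UMI is seen, so cells were also thinned to 1000 UMIs each. Of 3575 thinned untreated macrophages, 21.6% (20.2 to 23.0) had a Tnf UMI, against 48.9% (45.8 to 52.0) of 1016 after MSA-2. Among monocytes the share was 6.27% (3.92 to 9.42) of 335 cells and 54.0% (50.6 to 57.4) of 844 cells. Gng11/Ccn1 cells, used as the background class, had shares of 0.55% and 2.27%. Without thinning the shares were 53.6% and 83.7% for macrophages and 14.5% and 74.8% for monocytes, at median depths of 5563, 4831, 3506 and 3870 UMIs, and 11.7% and 27.8% for the much deeper Gng11/Ccn1 cells, at 19930 and 19957 UMIs.

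Cells with many Tnf UMIs made up a larger share of macrophages and monocytes after MSA-2. Macrophages with at least 10 Tnf UMIs made up 3.46% and 15.1%, while the highest count was 41 in both libraries. Among monocytes the share with at least 10 UMIs was 0 of 339 cells and 15.4%, and the highest counts were 8 and 31. In fibroblasts of the MSA-2 library the median was 0 Tnf UMIs per cell, and 10% of the cells held 68.3% of the UMIs.

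**Figure D2:**
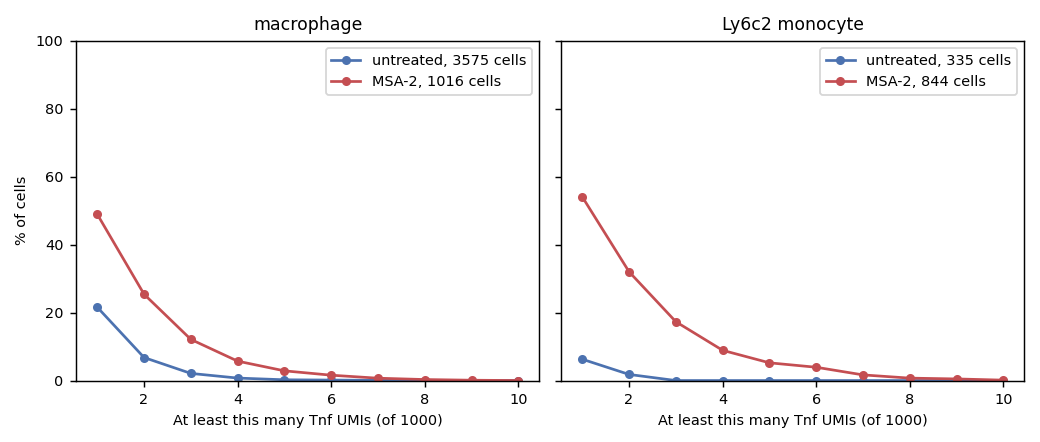
Percent of macrophages and of Ly6c2 monocytes with at least the given number of Tnf UMIs, after thinning every cell to 1000 UMIs. The MSA-2 line lies above the untreated line in both classes, starting at 48.9% against 21.6% in macrophages and at 54.0% against 6.27% in monocytes.

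Macrophages were not uniform in Tnf. Those in cluster 0, with Pf4 and Lyz2 among its leading genes, held 163 CPM (154 to 173) without MSA-2 and 1221 CPM (1174 to 1270) with it. Those in cluster 1, led by Cd72 and Ms4a7, held 469 CPM (455 to 484) and 799 CPM (755 to 844). Between clusters 0 and 1, the one with less Tnf in the untreated library thus held more after MSA-2. The 254 untreated macrophages in cluster 10 held 125 CPM, and those in cluster 9 held 360 and 1125 CPM. Macrophages in cluster 24, which includes Folr2, known from tissue-resident macrophages, among its leading genes, held 389 and 746 CPM. Clusters 1 and 0 made up 41.6% and 32.4% of untreated macrophages, whereas clusters 0, 1 and 24 made up 39.9%, 29.6% and 19.4% of MSA-2 macrophages. Ly6c2 monocytes in cluster 10 held 66.0 and 1432 CPM, so the difference was also present between cells of the same cluster. The unnamed cluster 9 taken whole, led by Mcpt2, Cma1, Tpsb2, Cpa3 and Ifnb1 with median depths of 1558 and 1387.5 UMIs, held 330 and 1578 CPM in 464 and 614 cells.

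Free RNA in the droplets can place transcripts of a large class in other cells, and the C1q genes of macrophages give a measure of it. In the untreated library there were 2.08 Tnf UMIs per 100 C1qa, C1qb and C1qc UMIs in macrophages, 2.10 in Gng11/Ccn1 cells and 2.34 in fibroblasts. Untreated Tnf in the Gng11/Ccn1 and fibroblast classes therefore stood close to the macrophage ratio and could not be told from free RNA. Endothelial cells stood at 3.70 on 6 Tnf beside 162 C1q UMIs, too few to tell them from that ratio. Monocytes at 4.96, dendritic cells at 9.77, NK cells at 14.9 and T cells at 15.0 lay above it. The untreated monocyte level, from which the fold in monocytes is taken, rested on 75 Tnf beside 1511 C1q UMIs, and the part of free RNA in it was not tested. After MSA-2 the ratio was 7.56 in macrophages, 19.7 in Gng11/Ccn1 cells, 80.3 in fibroblasts, 136 in monocytes, 180 in neutrophils, 255 in NK cells and 345 in T cells. C1q does not mark free RNA from other classes, and the part of free RNA in the MSA-2 values of Gng11/Ccn1 cells and fibroblasts was not tested.

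The cells that held Tnf transcripts differed with the make-up of the libraries. Macrophages held 79.8% of 8538 Tnf UMIs in the untreated library and 30.7% of 16908 in the MSA-2 library. Monocytes held 0.878% and 23.8%, neutrophils 0.082% and 6.78%, Gng11/Ccn1 cells 8.96% and 14.1%, and cells of no class 4.01% and 17.0%. Per 100 cells, the untreated library had 64.0 Tnf UMIs and the MSA-2 library 126. The untreated class shares combined with the MSA-2 levels per cell would give 204, and the MSA-2 shares with the untreated levels 40.2, a value that rests in part on 7 Tnf UMIs in the 9 untreated neutrophils. Thus the class make-up and the levels within classes moved Tnf over the captured cells in opposite directions, which describes the libraries and not the whole tumors.

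**Figure D3:**
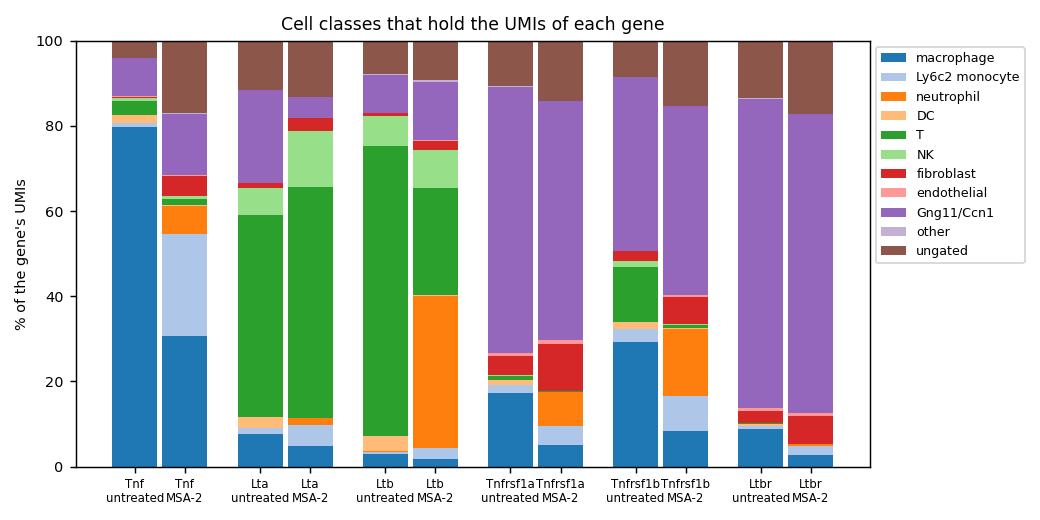
Percent of each gene's UMIs held by each cell class, with a stacked bar for each gene and library. The macrophage segment of Tnf shrinks from 79.8% to 30.7%, the T cell segment of Ltb from 68.0% to 25.2%, and the Gng11/Ccn1 segment of Ltbr stands at 72.7% and 70.2%.

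Lta was the scarcest member, with 78 UMIs without MSA-2 and 61 with it over all cells, a log2 ratio of -0.42 (-0.93 to 0.08) whose sign turned with equal weight per cell (0.49) and after thinning (0.32). T cells held 37 and 33 of these UMIs although their number fell from 1235 to 151. Their level was 8.09 CPM (5.70 to 11.2) and 46.3 CPM (31.9 to 65.1), 5.73-fold higher after MSA-2 with a log2 ratio of 2.52 (1.80 to 3.23) that became 3.84 with equal weight per cell and 3.87 after thinning. Within T cells, those with Cd8a or Cd8b1 held 8.88 and 21.7 CPM, from 27 and 11 UMIs. A further group held T cells without Cd8, Cd4 or Foxp3 transcripts, together with any that had both Cd8 and Foxp3 transcripts. It is named below as T cells without Cd8, Cd4 or Foxp3. Its Lta level was 6.86 and 143 CPM, from 7 UMIs in 377 cells and 21 UMIs in 47 cells. This small group was thus the source of most T cell Lta after MSA-2, in 11 of its 47 cells. It also held Trdc, of the gamma-delta T cell receptor, at 44.1 and 143 CPM and Il17a at 137 and 88.6 CPM. NK cells held 5 and 8 Lta UMIs, and Gng11/Ccn1 cells 17 and 3 UMIs at 0.136 and 0.0225 CPM.

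Ltb, which anchors the lymphotoxin complex to the membrane, was lower after MSA-2 over all cells and in T and NK cells. Over all cells it stood at 15.2 CPM (14.7 to 15.8) without MSA-2 and 3.04 CPM (2.80 to 3.30) with it, 5.02-fold lower with a log2 ratio of -2.33 (-2.46 to -2.20) that became -2.94 under the stricter cell filter and -1.74 after thinning. T cells held 415 and 206 CPM, with a log2 ratio of -1.01 (-1.26 to -0.77) that ranged from -1.08 to -0.86 over the alternatives, and NK cells 184 and 83.9 CPM, with a log2 ratio of -1.13 (-1.61 to -0.68) that ranged from -1.44 to -0.94. The fall within T and NK cells was thus smaller than that over all cells, in which T cells had also become fewer. After thinning, 31.1% of untreated and 18.8% of MSA-2 T cells had an Ltb UMI, against 0.231% and 0.0699% of Gng11/Ccn1 cells, and without thinning the T cell shares were 65.0% and 52.3% at median depths of 3106 and 3712 UMIs.

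Among untreated T cells, Ltb was highest in those with Foxp3, the regulatory T cell factor, at 791 CPM (701 to 890), followed by those with Cd4 at 553 CPM (446 to 680) and those with Cd8a or Cd8b1 at 345 CPM (324 to 366). The counting intervals of these levels did not overlap. After thinning, an Ltb UMI was seen in 51.3% (39.6 to 63.0) of Foxp3 cells and 29.2% (17.0 to 44.1) of Cd4 cells. In the Cd8 group the share was 26.2% (23.0 to 29.5), and the Cd4 interval overlapped those of both other groups. T cells without Cd8, Cd4 or Foxp3 held 475 CPM (433 to 519), above the Cd8 group and overlapping the Cd4 group. After MSA-2 the groups with Foxp3 and Cd4 held 6 and 7 cells, and the Cd8 group stood at 196 CPM (159 to 238). Untreated cDC2 cells, a dendritic cell subset, held 113 CPM from 91 UMIs, against 5.38 CPM in cDC1 cells. Neutrophils held 45.4 CPM (39.4 to 52.0) in the MSA-2 library. T cells held 68.0% of Ltb UMIs in the untreated library and 25.2% in the MSA-2 library, where neutrophils held 35.7%. Per 100 cells there were 21.0 and 4.35 Ltb UMIs, and exchanging only the levels gave 11.2 while exchanging only the class shares gave 9.53, so both moved it downward, the latter value including 1 Ltb UMI of the 9 untreated neutrophils.

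Both Lta and Ltb UMIs were seen in 24 of 1235 untreated and 16 of 151 MSA-2 T cells. Whether Lta went with Ltb was not resolved. Lta was seen in 2.99% of untreated T cells with an Ltb UMI and in 1.39% of those without. After MSA-2 these shares were 20.3% and 8.33%. In untreated T cells with Cd8a or Cd8b1 they were 4.15% and 0.794%. Among the 47 MSA-2 T cells without Cd8, Cd4 or Foxp3, Lta was seen in 45.0% (23.1 to 68.5) of the 20 with an Ltb UMI and in 7.41% (0.91 to 24.3) of those without, at median depths of 2940.5 and 2308 UMIs. In the same group of the untreated library the shares were 1.30% and 2.04%, and in MSA-2 T cells with Cd8a or Cd8b1 they were 11.8% and 10.0%. The intervals overlap and the depths differ.

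Tnfrsf1a, the broadly expressed TNF receptor, was detected in each class with at least 50 cells. In the untreated library it was highest in Ly6c2 monocytes at 149 CPM (129 to 172.5), followed by endothelial cells at 126 CPM (97.9 to 159) and fibroblasts at 100.4 CPM (91.5 to 110), with neighboring intervals overlapping. Macrophages at 84.8 CPM, dendritic cells at 67.7 CPM and Gng11/Ccn1 cells at 51.5 CPM came next, and T cells at 24.1 CPM and NK cells at 16.8 CPM were lowest. After MSA-2 neutrophils led at 171 CPM (159 to 183), followed by endothelial cells at 109 CPM, monocytes at 102 CPM, fibroblasts at 99.8 CPM and macrophages at 92.5 CPM.

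This receptor gene moved little between the libraries. Its log2 ratio was -0.55 (-0.80 to -0.30) in monocytes, -0.32 (-0.37 to -0.26) in Gng11/Ccn1 cells, 0.12 (-0.02 to 0.27) in macrophages and -0.01 (-0.17 to 0.15) in fibroblasts, where the sign turned under 4 alternatives, among them trimmed-mean scaling (0.10). Over all cells the levels were 56.1 and 51.3 CPM, with a log2 ratio of -0.13 that became 0.43 with equal weight per cell and 0.45 after thinning, so no direction is given. Gng11/Ccn1 cells held 62.4% and 56.1% of its UMIs. The 22 untreated and 13 MSA-2 pericytes, below the 50 cells asked of a class, held 235 and 183 CPM.

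Tnfrsf1b stood at higher levels in leukocyte classes than in the other classes of the untreated library, although the numerous Gng11/Ccn1 cells held 40.8% of its UMIs there and 44.3% after MSA-2. In the untreated library T cells held 179 CPM (167 to 192) and monocytes 154 CPM (133 to 178), with overlapping intervals, followed by macrophages at 88.3 CPM, NK cells at 75.6 CPM and dendritic cells at 55.4 CPM. Fibroblasts at 31.4 CPM, endothelial cells at 21.5 CPM and Gng11/Ccn1 cells at 20.7 CPM were lower. After MSA-2 neutrophils led at 255 CPM (240 to 270), while monocytes held 141 CPM, macrophages 115 CPM and T cells 71.6 CPM. T cells had therefore passed from the top of the order to a place below the myeloid classes.

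In T cells the log2 ratio of Tnfrsf1b was -1.32 (-1.76 to -0.91), a 2.50-fold lower level, and in NK cells it was -0.77 (-1.45 to -0.12). After thinning, 17.2% of untreated and 7.38% of MSA-2 T cells had a Tnfrsf1b UMI, against 2.87% and 2.50% of Gng11/Ccn1 cells. The lower level was found in T cells with Cd8a or Cd8b1, at 170 and 79.1 CPM, and in those without Cd8, Cd4 or Foxp3, at 216 and 47.7 CPM. Macrophages and fibroblasts lay on the other side of 0, with log2 ratios of 0.38 (0.25 to 0.51) and 0.49 (0.21 to 0.76). The fibroblast ratio was 0.0939 after thinning, where 4.99% and 4.91% of cells had a Tnfrsf1b UMI. In monocytes the log2 ratio was -0.13 (-0.37 to 0.11). That sign turned with equal weight per cell, after thinning, with classes from clusters and under trimmed-mean scaling. Macrophages in cluster 0 held 121 CPM (114 to 130) and 158 CPM (141 to 176) of Tnfrsf1b, and those in cluster 1 held 64.5 CPM (59.4 to 70.0) and 43.3 CPM (33.7 to 54.8), so the clusters lay on opposite sides. Over all cells the levels were 34.5 and 38.7 CPM, with a log2 ratio of 0.17 that turned to -0.05 under the stricter cell filter.

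Ltbr, the lymphotoxin beta receptor, had a non-lymphoid pattern. Over all cells it stood at 25.3 and 21.6 CPM, with a log2 ratio of -0.23 (-0.29 to -0.17). Untreated endothelial cells held 48.4 CPM (31.9 to 70.5), fibroblasts 27.9 CPM (23.3 to 33.2), Gng11/Ccn1 cells 27.1 CPM (26.2 to 28.0), monocytes 22.4 CPM (14.9 to 32.3) and macrophages 19.5 CPM (17.7 to 21.5). Dendritic cells held 11.8 CPM, and T and NK cells, which should lack the gene, held 3.50 and 3.74 CPM from 16 and 4 UMIs. After MSA-2 the level was 27.9 CPM in endothelial cells, 25.1 CPM in fibroblasts, 21.8 CPM in Gng11/Ccn1 cells, 21.2 CPM in macrophages and 18.6 CPM in monocytes. Neutrophils held 5.67 CPM, near the level of the untreated lymphocytes. In Gng11/Ccn1 cells, which held 72.7% and 70.2% of Ltbr UMIs, the log2 ratio was -0.31 (-0.38 to -0.24), across the partly different clusters named above for this class. With clusters taken whole, Ltbr ran the other way in cluster 3, at 24.4 and 28.0 CPM, in cluster 5, at 25.8 and 26.8 CPM, and in cluster 11, at 19.0 and 20.9 CPM. The other clusters named Gng11/Ccn1 were lower after MSA-2. The intervals of the endothelial, fibroblast, macrophage and monocyte ratios each included 0.

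**Figure D4:**
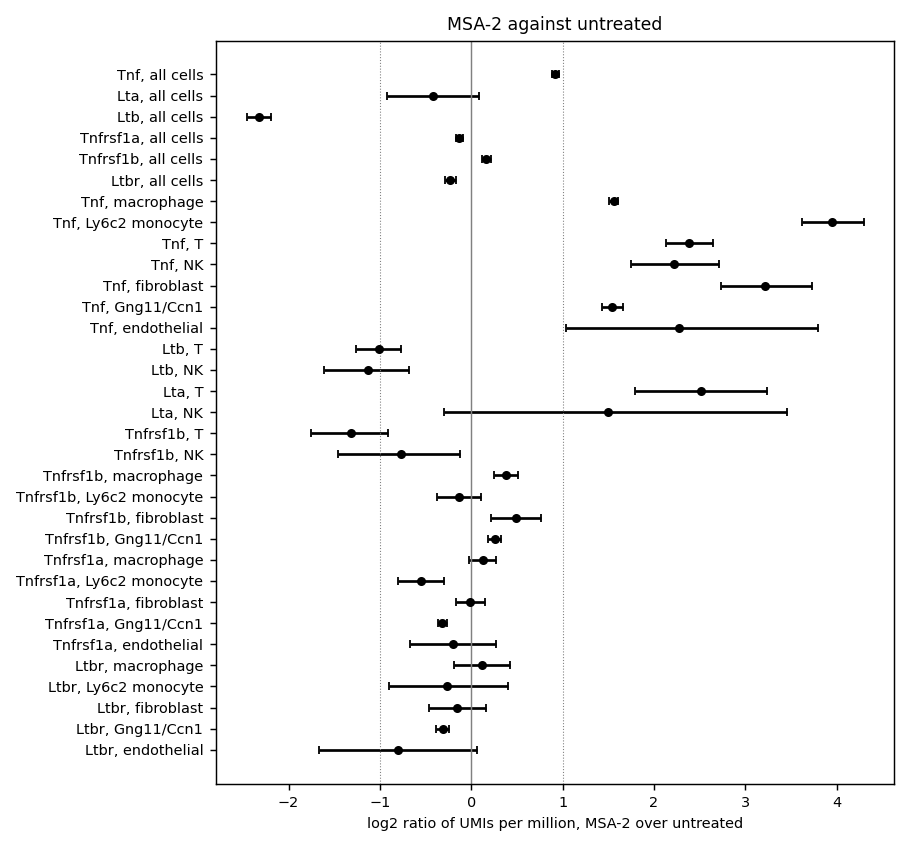
Log2 ratio of CPM, MSA-2 over untreated, for each gene over all cells and by class, with bars for the 95% counting interval and dotted lines at a 2-fold difference. The Tnf ratios by class lie above 1, the Ltb ratios of T and NK cells lie close to -1, on either side of it under the alternatives, and most receptor ratios lie between the dotted lines.

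Read against all genes, a 2-fold difference was commoner in some classes than in others. With 1 CPM added to each level, among genes with at least 20 UMIs, 2.98% of 19509 genes were at least 2-fold higher over all cells and 2.94% were at least 2-fold lower, and of the 6 members 0 were higher and 1, Ltb, was lower. Tnf over all cells would pass with equal weight per cell (1.52) and after thinning (1.48). In macrophages, where 5.45% of genes were higher and 3.71% lower, 1 of the 5 members counted was higher, Tnf, and 0 were lower. In Ly6c2 monocytes, where 16.6% were higher and 9.92% lower, Tnf was higher and Ltb lower among 5 members, with Ltb resting on 14 and 16 UMIs. The share of genes past 2-fold was larger in monocytes than in macrophages, in both directions. The MSA-2 monocyte sum includes the 87 cells in the fibroblast cluster 14, whose part in these shares was not tested. This holds for the monocyte values below as well.

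In T cells, where 4.95% of genes were higher and 9.75% lower, Tnf and Lta were higher and Ltb and Tnfrsf1b lower among 5 members, with Ltb at the 2-fold limit and short of it after thinning (-0.86) and under trimmed-mean scaling (-0.87). In NK cells, with 5.66% higher and 7.4% lower, 1 of 4 members was higher, Tnf, and 1 was lower, Ltb, which fell short of 2-fold with equal weight per cell (-0.94). Tnfrsf1b in NK cells would pass downward after thinning (-1.37) and with classes from clusters (-1.18). In fibroblasts, with 5.95% higher and 4.7% lower, 1 of 5 was higher, Tnf, and 1 was lower, Ltb, the latter at a background level of 4.11 and 1.22 CPM. In Gng11/Ccn1 cells, with 2.89% higher and 1.83% lower, 1 of 6 was higher, Tnf, and 0 were lower. Scaling by trimmed means would shift the log2 ratios by over 0.1 in macrophages (-0.13), monocytes (-0.14), T cells (-0.14), NK cells (-0.10), fibroblasts (-0.11) and endothelial cells (-0.16), and relative to those shifts the ratios above would be higher by these amounts.

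The genes that carry the receptor signal were counted beside the shares of all genes. Of 21 relay genes, which include the adaptor Tradd, the kinase Ripk1 and the TRAF family, 0 passed a 2-fold difference over all cells, with a median log2 ratio of -0.04 against 0.01 for all genes. In macrophages, where 3.71% of all genes were lower, 0 were higher and 2 lower, Traf3 at 271 and 120 CPM and Map3k14 at 39.7 and 19.0 CPM, both of which act in the noncanonical NF-kB pathway downstream of Ltbr. In monocytes, where 16.6% of all genes were higher and 9.92% lower, 1 of 20 was higher, the caspase-8 inhibitor Cflar at 192 and 442 CPM, and 2 were lower, Map3k14 at 83.9 and 22.2 CPM and Chuk at 48.8 and 21.3 CPM. In fibroblasts and in Gng11/Ccn1 cells 0 of 21 passed in either direction, and in T cells 1 of 21, Birc2, was lower at 161 and 70.2 CPM. In NK cells, where 5.66% of all genes were higher and 7.4% lower, 1 of 18 was higher and 4 were lower, of which Traf5 had 16 and 4 UMIs. Cflar stood at 66.3 and 143 CPM there, the kinase gene Ripk1 at 46.7 and 16.4 CPM from 50 and 10 UMIs, Birc2 at 85.9 and 41.1 CPM from 92 and 25 UMIs, and Chuk at 40.2 and 16.4 CPM from 43 and 10 UMIs. In endothelial cells 2 of 17 relay genes were higher and 1 lower, where 438 of 7287 genes were higher and 508 lower. Of the 5 NF-kB subunit genes, 1 passed in monocytes, Rel at 441 and 192 CPM, and 0 passed in macrophages, T cells, NK cells, fibroblasts or Gng11/Ccn1 cells.

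Among the 6 brakes on the pathway, Tnfaip3, which encodes the ubiquitin-editing enzyme A20, was higher in 4 of the classes compared. It stood at 290 and 813 CPM in macrophages, 198 and 937 CPM in monocytes, 126 and 403 CPM in fibroblasts and 33.5 and 111 CPM in Gng11/Ccn1 cells. In T cells it stood at 712 and 524 CPM, and 0 of the 6 brakes passed 2-fold there. Nfkbia, the NF-kB inhibitor, passed in monocytes at 1992 and 4327 CPM and in NK cells at 730 and 1526 CPM. The deubiquitinase gene Cyld was lower in macrophages, at 51.7 and 24.5 CPM, and in monocytes, at 79.9 and 25.5 CPM, where Otulin was also lower at 87.9 and 39.4 CPM. Tnip1, which encodes a partner of A20, passed in fibroblasts at 42.0 and 118 CPM and in Gng11/Ccn1 cells at 24.4 and 60.5 CPM. It also passed in endothelial cells at 136 and 365 CPM, where 438 of 7287 genes were higher and 508 lower.

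For shedding and mRNA control, 0 of 8 genes passed 2-fold in macrophages, where 5.45% of all genes were higher and 3.71% lower. Adam17, which encodes the sheddase of Tnf, held 168 and 218 CPM there, and Zfp36, which encodes a protein that destabilizes Tnf mRNA, held 925 and 929 CPM. In monocytes Zfp36l2 passed downward at 553 and 200 CPM, and Timp3 and Rhbdf1 passed upward from 5 and 4 untreated UMIs, reaching the minimum of 20 through the MSA-2 library. Timp3, which encodes an inhibitor of Adam17, was lower in fibroblasts at 409 and 93.9 CPM. Timp3 in MSA-2 monocytes stood at 34.4 CPM beside the fibroblast markers given for that class. In NK cells 1 of 6 genes of this list was higher, against 5.66% of all genes. In endothelial cells 1 of 8 was higher, where 438 of 7287 genes were higher.

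Genes known to be induced by Tnf had median ratios above those of all genes over all cells and in macrophages, fibroblasts, T cells and NK cells. In the other classes some of them reached the minimum of 20 UMIs mainly through the MSA-2 library. Values are therefore given there, with counts only for endothelial cells. Over all cells 5 of 12 were at least 2-fold higher and 0 lower, against 2.98% and 2.94% of all genes, with a median log2 ratio of 0.96. In macrophages 3 of 8 were higher and 0 lower, against 5.45% and 3.71% of all genes, with a median of 0.79 against -0.12 for all genes: the neutrophil chemokines Cxcl2 at 2440 and 5556 CPM and Cxcl1 at 279 and 653 CPM, and Il6 at 3.91 and 112 CPM. The monocyte values that follow stand beside the fibroblast markers of that class, at 319 and 6252 CPM. The part of its fibroblast-cluster cells in these values was not tested. In monocytes Cxcl1 stood at 160 and 1668 CPM, Ccl2 at 548 and 4309 CPM and Vcam1 at 49.6 and 208 CPM. Il6 there had 3 UMIs without MSA-2 and 2723 with it, at 2.40 and 624 CPM with a log2 ratio of 8.02 (6.48 to 10.30), and Cxcl2 stood at 2197 and 10158 CPM. Csf2, with 0 untreated UMIs, was at least 14.8-fold higher in monocytes against a floor of 3 counts over the class.

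In fibroblasts 4 of 10 of these genes were higher and 0 lower, against 5.95% and 4.7% of all genes, with a median of 0.78 against -0.10. They were Il6 at 113 and 645 CPM, Cxcl2 at 457 and 1797 CPM, Sod2, the mitochondrial superoxide dismutase, at 157 and 535 CPM, and Csf2 at 9.74 and 29.9 CPM. In Gng11/Ccn1 cells Cxcl2 stood at 51.3 and 505 CPM and Cxcl1 at 1121 and 2888 CPM. In endothelial cells the adhesion gene Selp stood at 208 and 527 CPM and Sele at 77.1 and 29.1 CPM. Sele was the 1 gene at least 2-fold lower among 10 counted there, and 5 were higher. Over all genes in that class, 438 of 7287 were higher and 508 lower, and the limit on counts named above applies. In T cells 4 of 8 were higher and 0 lower, against 4.95% and 9.75% of all genes, with a median of 0.74 against -0.15. In NK cells 4 of 7 were higher and 0 lower, against 5.66% and 7.4% of all genes, with a median of 1.01 against -0.10. Those in T cells were Cxcl2, Cxcl1, Icam1 and Ccl2, and the T cell level of Cxcl2, 118 and 831 CPM, lay below that of macrophages in each library. Cxcl2 is also a leading gene of the neutrophil clusters 2 and 25, and its values after MSA-2 stand beside the neutrophil markers given above for these classes.

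Genes known to respond to Ltbr were measurable in few classes. In fibroblasts 2 of the 6 had enough UMIs, and both were higher: Cxcl13, the B cell chemokine, at 8.66 and 597 CPM with a log2 ratio of 6.11 (5.66 to 6.59), and Ccl19, a ligand of Ccr7, at 20.6 and 85.2 CPM with a log2 ratio of 2.05 (1.74 to 2.37). In Gng11/Ccn1 cells Cxcl13 stood at 0.161 and 6.37 CPM from 20 and 849 UMIs and Ccl19 at 0.0883 and 1.44 CPM from 11 and 192 UMIs, and in macrophages Cxcl13 was higher at 9.48 and 22.0 CPM. The fibroblast class was drawn mainly from cluster 14 in both libraries, at 57.4% and 75.1%. Cluster 7 held 20.1% of its untreated cells and cluster 11 held 13.7% of its MSA-2 cells, and both clusters were named Gng11/Ccn1. In monocytes Cxcl13 and Ccl19 had 0 untreated UMIs and were at least 44.6-fold and 21.1-fold higher, again beside the fibroblast markers in that class. Endothelial Ccl21a had 37 UMIs without MSA-2 and 0 with it.

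Of the related ligands and receptors, Tnfsf15, which encodes the cytokine TL1A, was higher in macrophages at 13.5 and 83.1 CPM. In monocytes it had 0 untreated UMIs and was at least 16.1-fold higher. Tnfsf14, which encodes LIGHT, a further ligand of Ltbr, held 5.29 and 3.69 CPM in macrophages and 5.68 and 4.21 CPM in T cells.

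**Figure D5:**
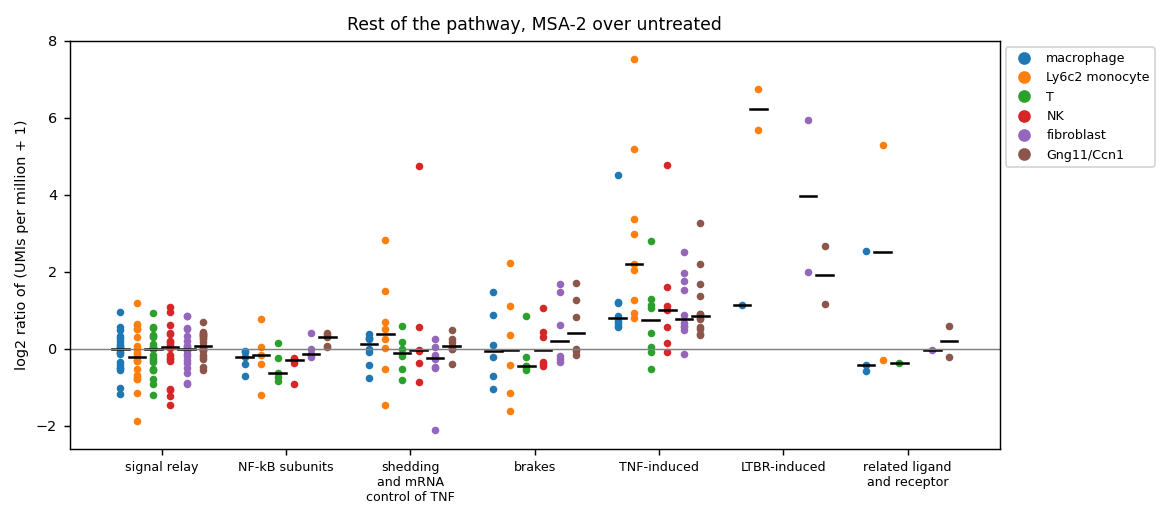
Log2 ratio of CPM with 1 added, MSA-2 over untreated, for each counted gene of the 7 pathway lists in 6 classes, with black bars at the list medians. The TNF-induced genes lie mostly above 0 and the signal relay genes around 0, and genes with few untreated UMIs are included if the 2 libraries together held 20.

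The genes most like each member were found over 16 class-by-library sums, which share the 2 libraries, among 6400 genes. For Tnf they were the chemokine gene Ccl4 (Pearson r = 0.955), the RNA sensor gene Ifih1 (0.913) and Lilr4b (0.908). For Lta they were Il12rb2 (0.944), Ifng (0.937) and Zbtb32 (0.936), and for Ltb Tnfrsf18 (0.972), Tut4 (0.970) and Acap1 (0.961). The 3 nearest genes differed between the ligands.

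For the receptors, the nearest genes were App (0.974), Ifitm2 (0.958) and Atrnl1 (0.942) for Tnfrsf1a, AY036118 (0.905), Ly6c2 (0.898) and Pag1 (0.896) for Tnfrsf1b, and Anxa3 (0.960), Myof (0.934) and Kif13a (0.931) for Ltbr. Among the members themselves, Lta and Ltb had r = 0.82, Tnfrsf1a and Ltbr 0.74, and Tnf and Tnfrsf1b 0.69. The lymphotoxin genes ran opposite to their membrane receptor gene, with r = -0.88 for Lta and Ltbr and -0.85 for Ltb and Ltbr. They also ran opposite to Tnfrsf1a, with -0.81 for Lta and -0.65 for Ltb. These values describe the order of the classes and carry no test.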

How the data were processed

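The values used were the deposited UMI counts per gene and barcode of 2 libraries, made by the authors with Cell Ranger (7.0.0 in the submitters' notes, 7.0.1 in the file header) on mouse build mm10; the notes also name Seurat 4.3.0. Barcodes below 500 genes or above 20% mitochondrial UMIs were dropped, leaving 14039 untreated and 13963 MSA-2, and 705 and 570 Scrublet doublet calls were removed. Each cell was given the class whose summed marker CPM was largest relative to a set threshold, with at least 2 markers detected. This rule was written after marker levels had been seen and is the third of 3 versions. Member levels had been seen under the second. The members and lists were chosen with earlier results of these data known. Ratios were taken between class sums, with 95% Poisson-based intervals. For shares, cells were thinned to 1000 UMIs with seed 1. Genes with at least 20 UMIs in the 2 libraries together were counted. Seurat 5.3.0 gave 33 clusters from 2000 variable genes and 30 dimensions at resolution 1.5, and edgeR 4.0.16 gave the trimmed-mean factors. Python 3.11.15 and R 4.3.3 were used.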

Additional observations from a re-analysis of the deposited data

How the results depend on the processing

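Each group had 1 library of pooled tumors, so animal, capture and treatment could not be told apart, and no spread between libraries was measured. No paired analysis was possible because each group held a single library. Of 305 alternative values for 33 log2 ratios, 256 lay inside the 95% counting interval of the reported value, 45 lay outside it, and 4 turned a ratio whose interval excluded 0; the cause was not tested. In all, 14 values changed sign, over 6 ratios, among them Lta over all cells, Tnfrsf1b in monocytes and Tnfrsf1a in fibroblasts, whose intervals included 0. T cell Ltb fell short of 2-fold after thinning, with equal weight per cell, under trimmed-mean scaling, with doublet calls kept and with higher thresholds, and NK cell Ltb with equal weight and with higher thresholds. Keeping every barcode left 33 of 33 inside the interval, and the first version of the class rule 27 of 27, although in the small endothelial class it gave 1.41 for Tnf and -0.17 for Ltbr, against 2.27 and -0.80. The versions of the class rule and the higher thresholds were chosen after seeing the data.

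With cells held to a minimum of 1000 genes and a maximum of 10% mitochondrial UMIs, the all-cell ratios were 0.79 for Tnf, -2.94 for Ltb, -0.22 for Tnfrsf1a and, turned, -0.0454 for Tnfrsf1b. With equal weight per cell they were 1.52 for Tnf, 0.49 for Lta, -1.84 for Ltb, 0.43 for Tnfrsf1a (turned) and 0.60 for Tnfrsf1b; Tnf was 1.70 in macrophages, 4.39 in monocytes and 1.71 in Gng11/Ccn1 cells, Lta 3.84 in T cells, Tnfrsf1b 0.19 in monocytes, and Tnfrsf1a -0.23 and Ltbr -0.24 in Gng11/Ccn1 cells. After thinning, the all-cell ratios were 1.48 for Tnf, 0.32 for Lta, -1.74 for Ltb, 0.45 for Tnfrsf1a (turned), 0.57 for Tnfrsf1b and -0.29 for Ltbr. Thinned Tnf was 1.63 in macrophages, 2.70 in T cells, 2.54 in fibroblasts and 2.29 in Gng11/Ccn1 cells, and Lta 3.87 in T cells. Thinned Tnfrsf1b was 0.63 in macrophages, 0.13 in monocytes, 0.0939 in fibroblasts and -0.19 in Gng11/Ccn1 cells (turned), and Tnfrsf1a 0.42 in macrophages, 0.16 in fibroblasts, -0.23 in Gng11/Ccn1 cells and -0.70 in endothelial cells.

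With classes from clusters, Tnf was 1.66 in macrophages and 1.42 in Gng11/Ccn1 cells, Tnfrsf1b 0.72 in macrophages, and Tnfrsf1a -0.14 in monocytes and -0.27 in fibroblasts. With thresholds 1.5 times higher, macrophage Tnf was 1.48. Under trimmed-mean scaling, macrophage Tnf was 1.69 and Tnfrsf1b 0.51, and Gng11/Ccn1 Tnfrsf1a -0.38. Under the second version of the class rule, Gng11/Ccn1 cells had Tnf 1.80, Tnfrsf1b 0.36, Tnfrsf1a -0.18 and Ltbr -0.23, and with doublet calls kept Tnf 1.25.

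Shares without thinning, untreated and MSA-2, were 53.6% and 83.7% for macrophage Tnf, 14.5% and 74.8% for monocyte Tnf, 65.0% and 52.3% for T cell Ltb, and 42.9% and 25.8% for T cell Tnfrsf1b. Asking at least 2 UMIs gave 6.77% and 25.4%, 1.79% and 32.0%, 7.82% and 3.36%, and 2.28% and 0.671%. With 10 CPM added, the shares of genes 2-fold higher and lower were 1.09% and 0.764% over all cells, 2.16% and 0.909% in macrophages, 8.50% and 4.49% in monocytes, 2.13% and 2.04% in T cells, 3.17% and 2.80% in NK cells, 2.29% and 1.36% in fibroblasts, and 0.956% and 0.472% in Gng11/Ccn1 cells. With 0.1 CPM added they were 6.99% and 5.93% over all cells and 7.71% and 4.40% in Gng11/Ccn1 cells, with 7.11% lower in macrophages. Counting genes from 1 UMI gave 2.41% lower in macrophages, 8.39% higher in T cells, and 15.8% and 11.5% in NK cells.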

Other observations

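Ifnb1, the interferon beta gene, was among the leading genes of the monocyte cluster 10 and of the unnamed cluster 9. In NK cells Cxcl2 stood at 45.8 CPM in the untreated and 1282 CPM in the MSA-2 library. Ifng, the interferon gamma gene, stood at 981 and 3727 CPM in T cells with Cd8a or Cd8b1, at 376 and 1118 CPM in T cells without Cd8, Cd4 or Foxp3, and at 434 and 1835 CPM in NK cells.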
